A study of Mus musculus with 4 samples.

Results

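Notch signalling genes were examined in group 2 innate lymphoid cells (ILC2s), lymphocytes that reside in tissues and secrete type 2 cytokines, sorted from mouse epididymal fat. The set holds 10 genes, matched by symbol among the 19088 genes of the deposited expression table: the receptor genes Notch1, Notch2 and Notch4, the nuclear cofactor genes Rbpj and Maml1, and the target genes Hes1, Hey1, Heyl, Dtx1 and Nrarp. The members were chosen by the measured values of this comparison: the set was proposed because Hey1 was higher in the knockout libraries of these same data. The knockout and wild-type values of the 10 genes are therefore given as a description, with no test.

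The 4 libraries fall into 2 groups of 2, both from C57BL/6 male mice 8 weeks old. The WT libraries have the genotype R5/+ and the KO libraries the genotype R5/+Stk11f/f, so the R5 allele is carried by both groups and the floxed Stk11 alleles by the KO group alone. Stk11 encodes the kinase LKB1, and the series title asks how LKB1 bears on the function of these cells. Each library came from 2000 to 4000 sorted cells. What R5 stands for, which cells delete Stk11 and whether the libraries come from separate animals is not stated in the labels, so the p-values cover only the spread among these 4 libraries, and that spread may be technical.

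Notch receptors are membrane proteins that are cut after binding a ligand of the Delta or Jagged type on a neighbouring cell. The freed intracellular part enters the nucleus, joins the DNA-binding protein RBPJ and a Mastermind coactivator, and turns on target genes, among them the HES and HEY repressors. The pathway takes part in the development of T cells and of innate lymphoid cells, and it patterns blood vessels, where Notch4, Hey1 and Heyl are known vascular genes.

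The libraries held 9044 to 9666 genes at 1 FPKM or more (fragments scaled to transcript length and to the mapped total of the library), and their values correlated across genes at 0.912 or more. The steps between low values corresponded to about 18100000 to 21600000 mapped fragments per library. The match to whole fragments was partial, so counting intervals are not given. Stk11 (gene 20869, chromosome 10, 80115767 to 80130679), the targeted gene, stood at 43.1 and 39.1 FPKM in the WT pair, against 31.9 and 16.6 FPKM in the KO pair. Both KO values lay below both WT values, and the difference missed the threshold (limma, adjusted p = 0.548). Cbarp overlaps Stk11 on the opposite strand, at 52.9 and 26.6 FPKM in WT, against 26.1 and 19.4 FPKM in KO, and its part in the Stk11 level was not tested. All 14 ILC2 markers examined were detected, with a summed level of 9894 and 10274 FPKM in WT and 9696 and 9414 FPKM in KO. Id2, which is not particular to ILC2s, held 4870 to 5317 FPKM of this sum in each library. Mast cell and basophil markers were abundant as well, at 16274 and 13471 FPKM in WT, against 25447 and 39743 FPKM in KO. All 11 of these markers in the table were higher in both KO libraries than in both WT libraries, against 18.5% of all genes tested. Of the 11, 2 were called higher (limma, adjusted p under 0.05), against 0.163% of all genes tested. In bulk samples, fewer cells of a type and less RNA per cell cannot be told apart.

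Promoter windows of 300 bases (250 before to 50 after a start site, RefSeq, GRCm38.p6) were found for 7 of the 10 genes. Hes1, Hey1 and Heyl had none in the table used. Rbpj and Notch2 are shown because Rbpj was the expressed member that lay lower in KO and Notch2 was the most abundant member. Capitals mark TGGGAA, the core letters bound by RBPJ, on either strand in Rbpj (chr5:53590096-53590395, plus strand). In Notch2 (chr3:98013288-98013587, plus strand) they mark CACGCG, letters bound by HES and HEY repressors.
Rbpj: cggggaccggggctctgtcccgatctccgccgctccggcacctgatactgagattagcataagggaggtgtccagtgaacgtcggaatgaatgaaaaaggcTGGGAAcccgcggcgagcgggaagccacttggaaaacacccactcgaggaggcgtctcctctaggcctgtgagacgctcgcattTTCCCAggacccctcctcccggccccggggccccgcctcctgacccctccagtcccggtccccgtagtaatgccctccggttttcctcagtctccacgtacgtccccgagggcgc
Notch2: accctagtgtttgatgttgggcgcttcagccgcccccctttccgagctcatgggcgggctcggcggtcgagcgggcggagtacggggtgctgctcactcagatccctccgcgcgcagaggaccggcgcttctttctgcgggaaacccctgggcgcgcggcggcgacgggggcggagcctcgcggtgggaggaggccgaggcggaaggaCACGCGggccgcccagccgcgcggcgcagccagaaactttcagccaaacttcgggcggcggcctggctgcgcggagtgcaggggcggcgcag

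The Rbpj window held TGGGAA 2 times, beginning 149 and 65 bases before the start site. A second Rbpj window that overlaps the first shares 1 of these matches. Both Rbpj windows lie inside the gene, which is annotated from 53555779, so its outermost start was not searched. The Maml1 window also lies inside its gene, which is on the minus strand and annotated to 50293131. The outermost start of Maml1 was thus not searched either. The windows of the genes other than Rbpj held no TGGGAA. Of all 32851 promoter windows in the table, 25.6% hold TGGGAA on either strand. The longer form GTGGGAA, which contains TGGGAA, was in 0 of the 8 windows of the 7 genes and in 6.38% of all windows. Notch2 held CACGCG 42 bases before its start site and Dtx1 held it 77 bases before, against 9.27% of all windows. Nrarp held CACGTG, the other E-box form searched, 108 bases before its start site, against 7.15% of all windows. The N-box form CACNAG was in the windows of Notch1, Notch2, Dtx1 and Nrarp, against 42.5% of all windows. All motifs were searched on both strands, and the E-box and N-box forms do not contain each other. These matches describe letters in a window and do not show binding.

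Among the receptors, Notch2 stood far above the others in every library. Notch2 (gene 18129, chromosome 3, 98013538 to 98150367) was measured at 86.2 and 68.1 FPKM in the WT pair, against 74.0 and 72.8 FPKM in the KO pair. The KO values lay between the WT values. It averaged 77.1 ± 12.8 FPKM in WT, against 73.4 ± 0.85 FPKM in KO (SD, n = 2 each), and 93.4% to 94.4% of all genes in a library stood at or below it. Notch1 (gene 18128, chromosome 2, 26457902 to 26503822), the receptor best known from T cell development, stood at 1.34 and 2.24 FPKM in WT, against 1.40 and 1.98 FPKM in KO. Here too the KO values lay between the WT values.

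In each library Notch2 was 30.4 to 64.3 times as abundant as Notch1 per length. It made up 96.2% to 98.1% of the summed FPKM of the 4 Notch receptors. Notch4 (gene 18132, chromosome 17, 34564286 to 34588543), a receptor of endothelial cells, was listed at 0 and 0.01 FPKM in WT, against 0.12 and 0 FPKM in KO. The groups overlapped, and KO replicate 1 alone stood above 0.01 FPKM, the last digit deposited. Notch3, the remaining receptor gene and not a member of the set, stood at 0.31 and 0.38 FPKM in WT, against 0.60 and 0.87 FPKM in KO, below the filter used for tests.

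**Figure D1:**
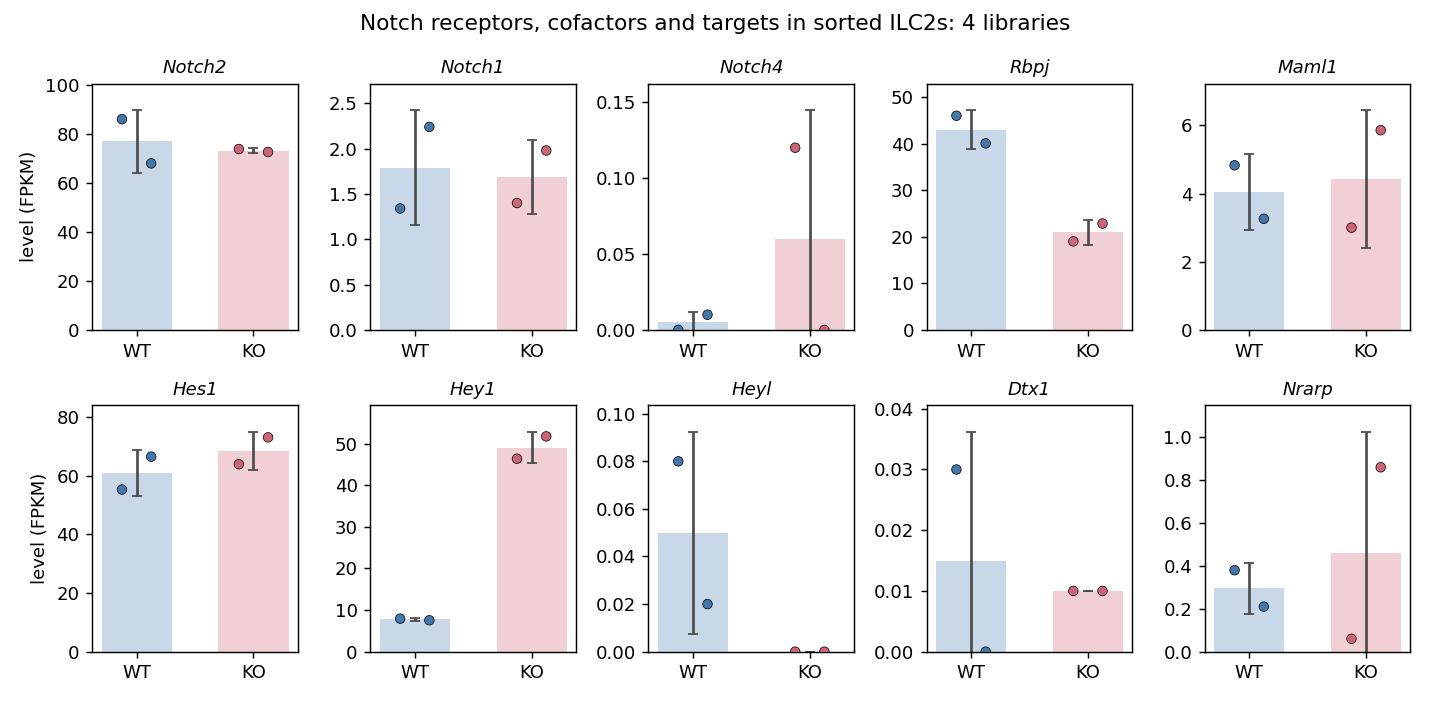
Level in FPKM (vertical axes, linear and starting at 0, with a scale of its own for each gene) of the 10 Notch genes in 2 WT and 2 KO libraries. Points are libraries, bars are group means and whiskers are the SD. The 2 KO libraries lie at 46.4 and 51.7 FPKM for Hey1, above both WT libraries, and at 19.0 and 22.8 FPKM for Rbpj, below both.

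Of the nuclear cofactors, Rbpj was lower in KO and Maml1 overlapped between the groups. Rbpj (gene 19664, chromosome 5, 53555779 to 53657445), which encodes the DNA-binding partner of the Notch intracellular part and acts as a repressor without it, stood at 46.0 and 40.1 FPKM in WT. It stood at 19.0 and 22.8 FPKM in KO. Both KO libraries lay below both WT libraries, with means of 43.0 ± 4.19 FPKM in WT and 20.9 ± 2.71 FPKM in KO (SD, n = 2 each). The WT mean was 2.06 times the KO mean, and the difference on the log2(FPKM + 1) scale was -1.01. Leaving out any 1 library gave differences of -1.13 to -0.88. Of the 9818 genes tested, Rbpj ranked 498 from the lowest difference.

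RefSeq annotates 3 pseudogenes named for Rbpj, and 0 of them have an entry in the expression table. Reads that match both the gene and a pseudogene make the Rbpj level uncertain to that extent. GENCODE also places genes on the opposite strand within Rbpj, Maml1, Notch1, Notch4 and Nrarp, and whether strand was used in counting is not stated. Maml1 (gene 103806, chromosome 11, 50255634 to 50293131), a Mastermind coactivator that recruits acetyltransferases to the complex, stood at 4.83 and 3.26 FPKM in WT, against 3.0 and 5.86 FPKM in KO. The groups overlapped, and the KO libraries lay on either side of the WT libraries.

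The target genes showed 1 gene apart from the rest. Hey1 (gene 15213, chromosome 3, 8663359 to 8667038), a basic helix-loop-helix (bHLH) repressor, stood at 7.93 and 7.55 FPKM in the WT pair, against 46.4 and 51.7 FPKM in the KO pair. The libraries of each group lay close together and the groups were far apart. It averaged 7.74 ± 0.27 FPKM in WT, against 49.1 ± 3.79 FPKM in KO (SD, n = 2 each), a 6.34-fold difference of the means and 2.52 on the log2(FPKM + 1) scale. Leaving out any 1 library gave differences of 2.44 to 2.59. Hey1 ranked 26 among the 9818 tested genes from the highest difference. In WT, 73.8% and 74.7% of all genes stood at or below Hey1, and in KO 91.5% and 92.2%. The mast cell and basophil markers given above were also higher in both KO libraries, and their part in the Hey1 level was not tested.

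Hes1 (gene 15205, chromosome 16, 30065357 to 30067796), a related repressor and a standard readout of Notch activity, was already abundant in WT. It stood at 55.3 and 66.5 FPKM in WT, against 63.9 and 73.1 FPKM in KO, so the groups overlapped. The means were 60.9 ± 7.93 FPKM in WT and 68.5 ± 6.48 FPKM in KO (SD, n = 2 each). Within a library, Hey1 stood at 0.143 and 0.114 times the level of Hes1 in WT and at 0.725 and 0.708 times its level in KO.

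The other 3 targets stood below 1 FPKM in every library. Heyl (gene 56198, chromosome 4, 123233556 to 123249870), the third HEY-type repressor gene, was listed at 0.08 and 0.02 FPKM in WT and at 0 in both KO libraries, so its groups are apart by the last digits deposited. Dtx1 (gene 14357, chromosome 5, 120680203 to 120711867), an E3 ubiquitin ligase of the Deltex family that is a Notch target in lymphocytes, was listed at 0.03 and 0 FPKM in WT and at 0.01 FPKM in both KO libraries. Nrarp (gene 67122, chromosome 2, 25180758 to 25183339), an ankyrin repeat protein that inhibits Notch complexes in a feedback loop, stood at 0.38 and 0.21 FPKM in WT, against 0.06 and 0.86 FPKM in KO. Nrarp differed more between the KO libraries than between the groups.

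Of the 10 members, 1 (Hey1) lay higher in both KO libraries than in both WT libraries, 2 (Rbpj and Heyl) lay lower, and 7 overlapped. Over all genes tested, 39.1% had groups that do not overlap, 18.5% with KO above and 20.6% with KO below. The median difference over all 10 members was 0.03 on the log2(FPKM + 1) scale, and over all genes tested it was -0.01. A total of 6 members averaged 1 FPKM or more over the 4 libraries and entered the fit, and each of them also did so in either group. Notch4, Heyl, Dtx1 and Nrarp did not enter it, so the counts and median over 10 members include genes of a kind left out of the shares and median of all genes tested. Among the 6 members that entered the fit, Hey1 lay higher in both KO libraries, Rbpj lay lower and the others overlapped. When each library was scaled to the same total, Hes1 also lay higher in both KO libraries, with a difference of 0.29.

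The order of levels in WT was Notch2, Hes1, Rbpj, Hey1, Maml1, Notch1 and Nrarp, and no neighbours in this order had overlapping ranges over the 2 libraries. In KO, Notch2 and Hes1 overlapped, Hey1 took rank 3 above Rbpj, and Notch4 overlapped with its neighbours Nrarp and Dtx1. Hey1 was at 0.173 and 0.189 times the level of Rbpj in WT and at 2.44 and 2.27 times its level in KO. At the bottom of the WT order, Heyl overlapped with Dtx1 and Dtx1 with Notch4, while Heyl lay above Notch4 in both libraries.

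By the distance between centred log2(FPKM + 1) values over the 4 libraries, the genes with profiles most like that of Hey1, of 6144 other genes averaging 5 FPKM or more, were Ass1, Mtg2, Ecm1, Eml1 and Inka1. Their distances to Hey1 were 0.54 to 0.58. Mtg2, Eml1 and Inka1 averaged 1.53, 0.38 and 3.25 FPKM in WT, against 10.4, 10.8 and 28.7 FPKM in KO. These 3 thus reached 5 FPKM only through the KO group. Ass1, which makes argininosuccinate in arginine synthesis, stood at 29.9 and 35.6 FPKM in WT, against 137 FPKM in both KO libraries. Ecm1, an extracellular matrix protein, stood at 10.2 and 7.74 FPKM in WT, against 35.9 and 40.5 FPKM in KO. Eml1, a microtubule-binding protein, stood at 0.43 and 0.33 FPKM in WT, against 10.4 and 11.1 FPKM in KO. These 5 genes were picked for their likeness to a gene chosen for its difference, so their values are a description.

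Genes outside the set, of the Notch pathway and of 3 related lists (bHLH relatives of Hey1, BMP response genes and innate lymphoid regulators), were read from the fit over all genes (limma on log2(FPKM + 1), Benjamini-Hochberg adjustment, threshold 0.05). Of 110 such genes in 12 lists by role, 109 were in the table and 75 were tested. Of these 75, 0 were called higher and 0 lower (limma, smallest adjusted p = 0.119), where 0.163% and 0.0509% of all genes were called. At an unadjusted p under 0.05 there were 4 higher and 4 lower, where 4.69% of all genes tested were higher and 4.49% lower. Together they made up 10.7% of the 75, against 9.18% of all genes tested. The KO libraries lay above both WT libraries in 12 of the 75 (16%) and below in 16 (21.3%), near the shares of all genes. The median difference was 0.02, with 41 of 75 positive. The Notch pathway lists alone held 56 of the tested genes. Of these 56, 0 passed, and 5.36% had an unadjusted p under 0.05, 2 of them higher and 1 lower in KO. The KO libraries lay above in 9 of the 56 (16.1%) and below in 12 (21.4%). Poglut1 and L3mbtl3 among the 9, and Ptcra among the 12, reached the filter through 1 group alone. The 3 related lists alone held 19 of the tested genes, and 0 passed. Of these 19, 26.3% had an unadjusted p under 0.05 (limma), 2 of them higher and 3 lower in KO, against 9.18% of all genes tested. The KO libraries lay above in 15.8% of the 19 and below in 21.1%. A p that misses the threshold with 2 libraries a group does not show that levels were alike.

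**Figure D2:**
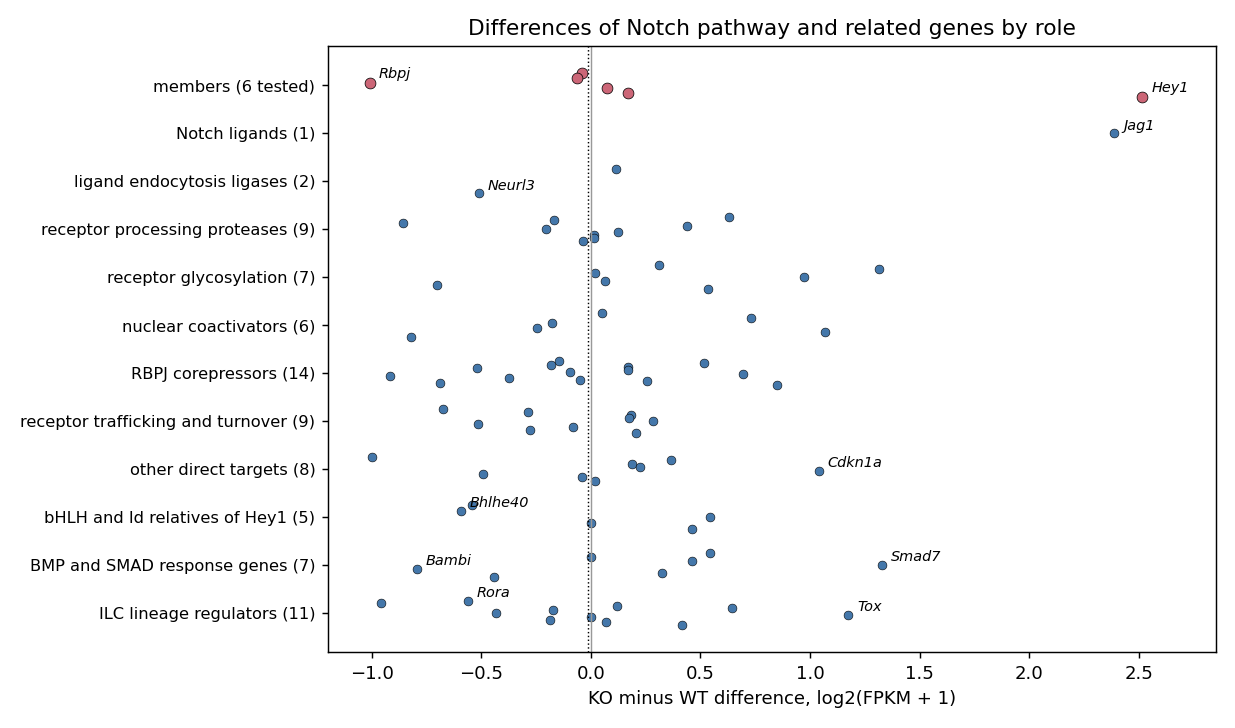
Difference between KO and WT on the log2(FPKM + 1) scale (horizontal axis) for the tested members (red) and the other tested pathway and related genes (blue), in rows by role with the number tested. The solid line marks 0 and the dotted line the median of all genes, -0.01; named are Hey1, Rbpj and the pathway and related genes with an unadjusted p under 0.05. Hey1 at 2.52 and the ligand gene Jag1 at 2.39 lie farthest to the right.

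Of the 7 ligand genes, Jag1 alone was abundant enough to be tested. Jag1 (gene 16449, chromosome 2, 137081451 to 137116520), a membrane-bound ligand of Notch receptors, stood at 43.5 and 14.9 FPKM in WT, against 115 and 166 FPKM in KO. The WT libraries differed from each other, and both KO libraries lay above them. The means were 29.2 ± 20.2 and 141 ± 36.1 FPKM (SD, n = 2 each), with a log2 difference of 2.39 (SE 0.46) that missed the threshold (limma, adjusted p = 0.119). It was 1.65 without WT replicate 2 and 3.13 without WT replicate 1 (limma, adjusted p = 0.659 and 0.204). Jag1 stood at 0.505 and 0.219 times the level of Notch2 in WT and at 1.56 and 2.28 times its level in KO. The Delta-type ligand gene Dll1 stood at 2.04 and 0.08 FPKM in WT, against 1.07 and 0.16 in KO, and Dll4 was at 0.04 FPKM or less in every library.

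Of 2 tested ubiquitin ligase genes of the Mind bomb and Neuralized families, some of which act on Notch ligands in the sending cell, 0 passed. Neurl3 of the Neuralized family was abundant, at 781 and 569 FPKM in WT, against 497 and 439 FPKM in KO (limma, adjusted p = 0.506). Mib1, the main ligase for Notch ligands, stood at 15.1 and 10.3 FPKM in WT, against 13.3 and 13.9 FPKM in KO.

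Of 9 tested receptor-cutting genes, 0 passed. The KO libraries lay above in 11.1% of them and below in 22.2%, against 18.5% and 20.6% of all genes tested. The gamma-secretase subunit gene Psenen stood at 513 ± 29.8 FPKM in WT, against 500 ± 34.7 in KO, and Psen2, a catalytic subunit, at 196 ± 104 and 158 ± 15.7 FPKM (SD, n = 2 each). Furin, which cuts the receptor during its maturation, stood at 81.0 ± 57.7 and 111 ± 32.0 FPKM. Adam17, a sheddase of the cell surface, stood at 5.32 ± 1.75 and 2.48 ± 0.84 FPKM (limma, adjusted p = 0.683).

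Of 7 tested genes for sugars on the receptor, 0 passed. The KO libraries lay above in 3 (42.9%) and below in 0, against 18.5% and 20.6% of all genes tested. Poglut1, which adds glucose to the receptor, stood at 0.28 and 1.68 FPKM in WT, against 6.55 and 1.81 FPKM in KO (limma, adjusted p = 0.594). The WT pair averaged 0.98 FPKM, so Poglut1 reached the filter of 1 FPKM only through the KO group. The share of 42.9% thus depends in part on the filter. Rfng and Gxylt1, also above in KO, had log2 differences of 0.06 and 0.53. Mfng, a Fringe enzyme that tunes the choice of ligand, stood at 16.8 and 1.66 FPKM in WT, against 12.3 and 12.7 FPKM in KO. Xxylt1, a xylosyltransferase, stood at 6.68 ± 0.86 and 5.12 ± 5.52 FPKM.

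Among 6 tested coactivators, 0 passed. Snw1, a splicing and transcription cofactor that joins the Notch complex, stood at 11.8 and 11.1 FPKM in WT, against 20.4 and 18.9 FPKM in KO (limma, adjusted p = 0.562). The acetyltransferase gene Kat2b stood at 18.2 and 16.4 FPKM in WT, against 8.5 and 10.2 FPKM in KO (limma, adjusted p = 0.545). Crebbp, another acetyltransferase, stood at 15.7 ± 0.79 and 13.1 ± 0.56 FPKM. Groups did not overlap in these 3 of the 6 genes, with Snw1 higher and both acetyltransferase genes lower in KO, where 39.1% of all genes tested had groups that do not overlap.

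Of 14 tested corepressor genes, 0 passed. The KO libraries lay above in 14.3% of them and below in 21.4%, against 18.5% and 20.6% of all genes tested. L3mbtl3, among those above, averaged 0.66 FPKM in WT and 1.725 FPKM in KO. It thus reached the filter of 1 FPKM only through the KO group. The Groucho-family gene Tle5 stood at 49.96 ± 17.9 FPKM in WT, against 92.0 ± 38.9 in KO (limma, adjusted p = 0.542). The histone demethylase gene Kdm1a stood at 15.3 ± 2.90 and 7.66 ± 1.88 FPKM (limma, adjusted p = 0.543), and the corepressor gene Ncor1 at 42.7 ± 5.16 and 38.4 ± 3.69 FPKM. Of 9 tested genes of receptor trafficking and turnover, 0 passed. The KO libraries lay below in 3 (33.3%), against 20.6% of all genes tested, and above in 0, against 18.5%. Numb, an inhibitor that promotes receptor endocytosis, stood at 14.5 and 17.7 FPKM in WT, against 8.14 and 11.5 FPKM in KO (limma, adjusted p = 0.640). Aak1, an endocytic kinase, stood at 2.20 ± 1.20 and 1.16 ± 0.07 FPKM, and the ligase gene Nedd4 at 16.3 ± 4.32 and 18.4 ± 2.24 FPKM.

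Of 8 tested further target genes, 0 passed. Cdkn1a, which encodes the cell-cycle inhibitor p21, stood at 288 and 215 FPKM in WT, against 668 and 393 FPKM in KO, and its log2 difference was 1.04 (SE 0.28; limma, adjusted p = 0.256). It was 0.66 without KO replicate 1. Ptcra, the pre-T-cell receptor chain and a Notch target in the thymus, stood at 3.29 and 1.90 FPKM in WT, against 0.84 and 0.69 FPKM in KO (limma, adjusted p = 0.659). The KO pair averaged 0.765 FPKM, so Ptcra reached the filter of 1 FPKM only through the WT group. Gata3, the lineage regulator of ILC2s, stood at 530 and 422 FPKM in WT, against 508 and 417 FPKM in KO. The repressor genes Hes5 and Hey2 were at 0.04 FPKM or less in every library, so Hes1 and Hey1 were the abundant ones among the classical targets Hes1, Hes5, Hey1, Hey2 and Heyl.

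**Figure D3:**
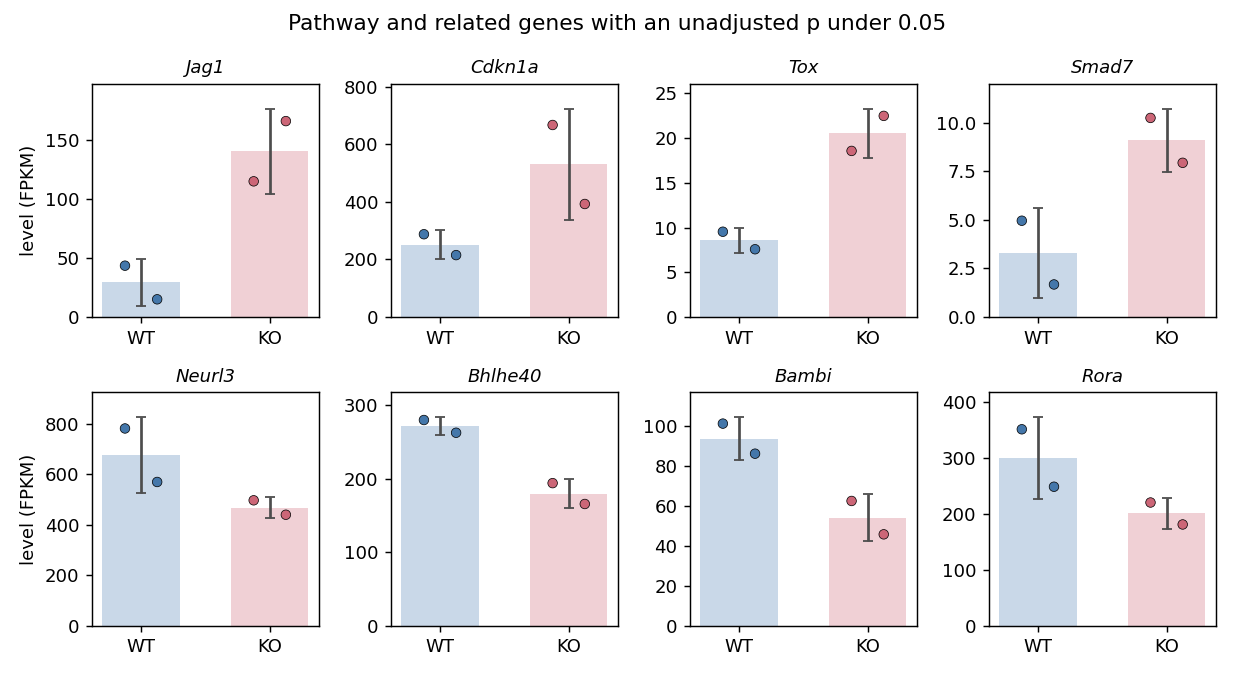
Level in FPKM (vertical axes, linear from 0, with a scale of its own for each gene) of the 8 pathway and related genes with an unadjusted p under 0.05, in 2 WT and 2 KO libraries. Points are libraries, bars are group means and whiskers are the SD; the upper 4 genes lie higher in both KO libraries and the lower 4 lower, and 0 of the 8 passed after adjustment.

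Of 5 tested bHLH and Id relatives of Hey1, 0 passed. Bhlhe40, a repressor of the same superfamily, stood at 280 and 263 FPKM in WT, against 194 and 166 FPKM in KO, and its log2 difference was -0.59 (SE 0.21; limma, adjusted p = 0.415). Id2, an inhibitor of bHLH factors that all innate lymphoid cells need, stood at 5083 ± 93.7 and 5094 ± 315 FPKM, and Id1 at 2.69 ± 3.10 and 3.43 ± 1.36 FPKM. Hey1 is also a response gene of bone morphogenetic protein (BMP) signals in vascular cells, and of 7 tested BMP and SMAD response genes 0 passed. Smad7, an inhibitory SMAD, stood at 4.95 and 1.67 FPKM in WT, against 10.2 and 7.93 FPKM in KO (limma, adjusted p = 0.531), with a log2 difference of 1.33 that was 0.75 without WT replicate 2. Bambi, a decoy receptor, stood at 101 and 86.2 FPKM in WT, against 62.5 and 45.8 FPKM in KO (limma, adjusted p = 0.412). Skil, a SMAD corepressor, stood at 224 ± 22.4 and 165 ± 16.7 FPKM.

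Of 11 tested regulators of innate lymphoid lineages, 0 passed. Tox, a nuclear factor of lymphoid development, stood at 9.53 and 7.57 FPKM in WT, against 18.6 and 22.5 FPKM in KO, and its log2 difference was 1.17 (SE 0.38; limma, adjusted p = 0.363). Rora, a nuclear receptor required for ILC2 development, stood at 351 and 248 FPKM in WT, against 220 and 181 FPKM in KO (limma, adjusted p = 0.538).

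Markers of other cells were set beside these levels. Mast cell and basophil markers had a summed level 2.19 times as high in KO as in WT, led by the protease genes Cma1 (6272 ± 919 and 13402 ± 5482 FPKM) and Cpa3 (4032 ± 7.54 and 7062 ± 3749 FPKM). Between the KO libraries this sum went from 25447 to 39743 FPKM. Hey1 went from 46.4 to 51.7 and Rbpj from 19.0 to 22.8 FPKM. Single markers of the list differed in this step. Cma1 went from 9525 to 17278 FPKM, Cpa3 from 4411 to 9713 FPKM and Fcer1a from 731 to 1018 FPKM. Tpsb2 went from 7584 to 8155 FPKM, Kit from 87.8 to 82.9 FPKM and Mcpt8 from 158.8 to 153.6 FPKM. The part of mast cells and basophils in the values of Hey1, Rbpj, Jag1 and the other pathway genes was not tested.

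Endothelial markers summed to 9.31 to 16.4 FPKM in the 4 libraries, with Tek, Tie1, Robo4 and Sox17 under 0.1 FPKM in each, Cdh5 at 0.33 FPKM or less, and Pecam1, also expressed by leukocytes, as the most abundant. Pericyte and smooth muscle markers summed to 0.14 to 7.79 FPKM. Adipose stromal markers summed to 19.5 and 9.83 FPKM in WT, against 0.30 and 1.75 FPKM in KO, with Lum at 0 in every library and Dcn, a matrix proteoglycan, at 14.7 and 9.24 FPKM in WT, against 0.03 and 1.60 FPKM in KO. Adipocyte markers summed to 141 and 5.45 FPKM in WT, against 36.04 and 26.6 FPKM in KO. Fabp4 was the most abundant, at 138.9 and 0.68 FPKM in WT, against 15.8 and 21.1 FPKM in KO. Cfd stood at 0.49 and 4.71 FPKM in WT, against 17.5 and 5.02 FPKM in KO. Of the 6 adipocyte markers, 2 lay above in both KO libraries and 0 below, where 18.5% and 20.6% of all genes tested did.

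T cell markers summed to 232 and 269 FPKM in WT, against 194 and 196 FPKM in KO, nearly all from Cd3g, with Cd5 at 0 in every library. Cd3e went the other way, at 1.53 and 0.24 FPKM in WT, against 1.87 and 4.91 FPKM in KO. B cell markers summed to 5.76 and 0.19 FPKM in WT, against 20.3 and 10.4 FPKM in KO, with Pax5 under 0.1 FPKM in each. Cd79a stood at 1.69 and 0 FPKM in WT, against 11.2 and 6.64 FPKM in KO. Macrophage and dendritic cell markers summed to 10.9 to 27.9 FPKM, with Csf1r and Itgax at 0. Xcr1 was the most abundant, at 18.0 and 12.1 FPKM in WT, against 10.2 and 13.8 FPKM in KO. Cd68 (8.66 FPKM), Cd209a (2.93 FPKM) and Lyz2 (1.94 FPKM) reached 1 FPKM in KO replicate 2 alone, and Adgre1 (4.20 FPKM) in WT replicate 2 alone. Haemoglobin and other erythroid genes summed to 53232 and 84123 FPKM in WT, against 67479 and 26662 FPKM in KO, so the groups overlapped. Summed levels thus lay higher in both KO libraries for mast cell and basophil and for B cell markers, and lower for ILC2, adipose stromal and T cell markers. Single markers did not all follow their sum. Of 14 ILC2 markers, 1 lay above in both KO libraries and 5 below; of 8 T cell markers, 1 above and 1 below; of 9 adipose stromal markers, 0 above and 4 below. Of the 4 B cell markers, 1 lay above in both KO libraries and 0 below. Over all genes tested, 18.5% lay above and 20.6% below, and some of the markers counted here were under the filter of 1 FPKM. The ILC2 marker above was Icos, a costimulatory receptor, at 136 and 120.1 FPKM in WT, against 273 and 280.5 FPKM in KO. The part of these shifts in the pathway values was not tested.

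**Figure D4:**
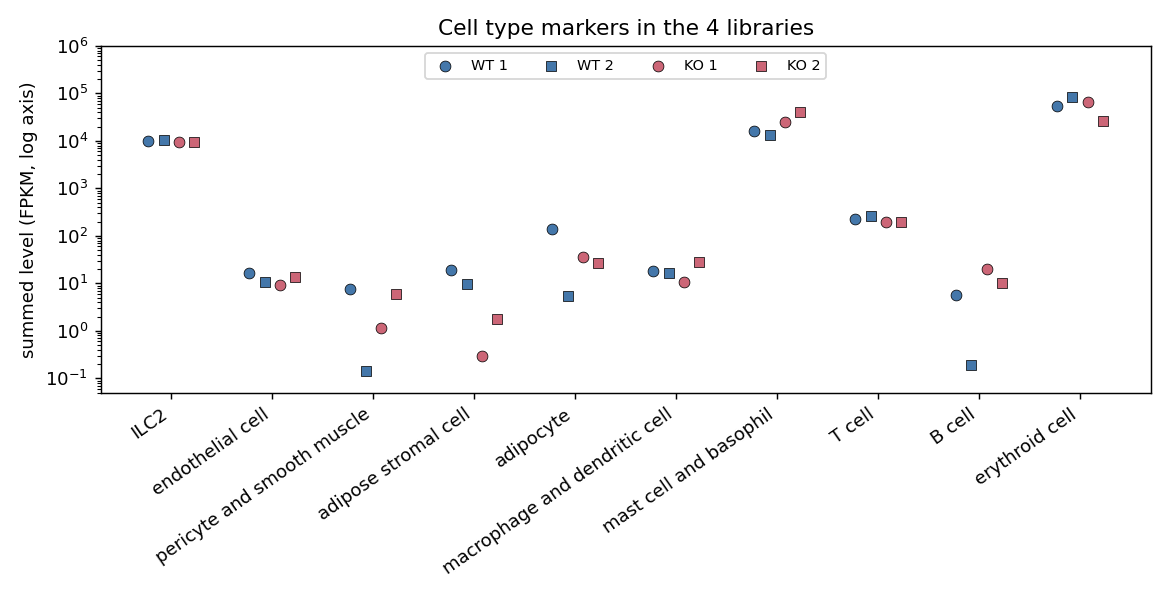
Summed level in FPKM (vertical axis, log scale) of the markers of 10 cell types (horizontal axis) in the 4 libraries; blue is WT, red is KO, circles are replicate 1 and squares replicate 2. ILC2 markers, led by Id2, lie between 9414 and 10274 FPKM in all libraries. Mast cell and basophil markers are higher in both KO libraries, and endothelial markers stay at 16.4 FPKM or less.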

How the data were processed

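The authors deposited 1 table of FPKM values per gene and library, rounded to 2 decimals. Bowtie2, RSEM and DESeq2 are named with the assembly GRCm38.p6 in the submitters' processing notes, with no role, version or setting stated. It gives no counts, and count models were therefore not applied. Groups came from the sample titles. FPKM moves with a few very abundant genes, and without strand antisense partners cannot be told apart.

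Values were tested as log2(FPKM + 1), which understates differences of low genes, with limma 3.58.1 in R 4.3.3 (trend and robust moderation) over the 9818 genes averaging 1 FPKM or more, KO minus WT, Benjamini-Hochberg adjustment, threshold 0.05. An exact permutation test of 2 against 2 cannot go below 0.333 and was not used. The fit was tested on simulated data. Coordinates came from RefSeq genes of GRCm38.p6 (19034 of 19088 identifiers matched), promoters from the RefSeq table of the same build. Protein sequences were not compared here, and 1 B cell marker is not reported here.

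The members, lists and tests were chosen with earlier results of these data known. Named genes are the members, Stk11, some of the leading markers and the 5 genes most like Hey1. In each role list, the 2 genes of smallest p and the 2 of highest level were also named. Notch3, Dll1, Dll4, Hes5, Hey2, Rfng, Gxylt1, L3mbtl3, Cbarp, Icos, Tpsb2, Kit and markers at or near 0 were added after their values were seen. So were the markers Fcer1a, Mcpt8, Cldn5, Eng, Egfl7, Cd209a, Lyz2 and Adgre1.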

Additional observations from a re-analysis of the deposited data

How the results depend on the processing

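Over all genes, 21 were called (limma, smallest adjusted p = 0.0318). The count was 0 under quantile normalization, with no filter, with a pseudocount of 0.1 and without trend and robust moderation, and 1 with median-ratio scaling. It was 19 with a pseudocount of 0.5, 20 with a filter of 5 FPKM in 2 libraries and 23 with each library scaled to 1 total. With a total that leaves out haemoglobin, mast cell and ribosomal protein genes, the count was 26. It was 0 to 1 when any 1 library was left out. With the replicate number as a block, 0 genes passed (limma, smallest adjusted p = 0.0534, 1012 at an unadjusted p under 0.05). The labels do not tie the numbers to a pairing, and the deviations of same-numbered libraries correlated at 0.025 across genes. The count over pathway and related genes stayed at 0 in all of these and the other alternatives, with limma.

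The Hey1 difference was 2.52, and it was 2.65 with a pseudocount of 0.1, 2.63 with each library scaled to 1 total and 2.44 to 2.59 with 1 library left out. Members with KO above WT numbered 1, and 2 (Hes1 and Hey1) with each library scaled to 1 total and with a total that leaves out haemoglobin, mast cell and ribosomal protein genes. With 1 library left out they numbered 2 to 4, and those with KO below WT 2 to 4, since fewer libraries have to be apart. The median member difference of 0.03 was -0.06 to 0.05 with 1 library left out and -0.01 with a pseudocount of 0.1. Scaling to 1 total moved the median difference of all genes from -0.01 to 0.10. Of 523 single-gene values under alternatives, members included, 28 changed sign. Where an arm held 1 library, that library was assumed to vary like the others. Levels under 0.1 FPKM, as for Heyl and Dtx1 in every library and Notch4 in all but KO replicate 1 (0.12 FPKM), rest on the last digits deposited.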
